A study of Mus musculus with 7 samples.

Results

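Glutamate receptor genes that had led clusters of tumor cells were followed across the tumor cells and host cells of mouse malignant peripheral nerve sheath tumors (MPNSTs), which are aggressive sarcomas of the Schwann cell lineage. The 6 genes were Gria1 (ENSMUSG00000020524), Gria3 (ENSMUSG00000001986), Grik2 (ENSMUSG00000056073), Grm7 (ENSMUSG00000056755), Neto2 (ENSMUSG00000036902) and Shisa6 (ENSMUSG00000053930), found by symbol among the 33696 genes of the deposited matrices. They were chosen by their UMI counts in clusters of tumor cells, which they had led in these same libraries, so their levels in tumor and host cells and their co-expression are given as descriptions, with no test. Only the comparison of irradiated with control tumors was tested. Of 34296 retained cells, 14498 passed a marker gate for tumor cells.

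JW23.3, an Nf1-knockout mouse MPNST cell line, was grown under the flank skin of female wild-type C57/B6 mice aged 5 to 6 weeks after implantation on day 0. After randomization on day 7, the tumors of 4 mice received 5 daily fractions of 2 Gy behind lead shielding, and the tumors of 3 control mice were not irradiated. All tumors were taken on day 21, dissociated with papain and profiled by 3′ droplet sequencing, with 1 library per tumor, so the tumor was the replicate. Every tumor came from the same cell line, and each group is therefore a model of 1 tumor genotype in a skin site.

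Ionotropic glutamate receptors are ion channels opened by glutamate and carry most fast excitatory transmission in the brain. AMPA receptors assemble from the subunits encoded by Gria1 to Gria4, and kainate receptors from Grik1 to Grik5. Auxiliary proteins bind these channels and change their gating and trafficking: Neto2 is an auxiliary subunit of kainate receptors and Shisa6 of AMPA receptors. Grm7 encodes mGlu7, a metabotropic receptor that signals through inhibitory G proteins and sits at presynaptic endings. In peripheral nerve, Schwann cells and their precursors also carry glutamate receptors.

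Promoter windows of 300 bases, from 250 before to 50 after a RefSeq transcript start (GRCm38.p6), were at hand for 3 of the 6 genes. They are shown for Neto2 and for Grik2 and Grm7, which were found together in the same cells. The Neto2 level was higher in every irradiated than in every control tumor, as was that of 1.37% of the genes tested, and Neto2 did not pass the test. Capitals mark each CG dinucleotide, the site of DNA methylation.
Neto2, chr8:85700875-85701174, minus strand: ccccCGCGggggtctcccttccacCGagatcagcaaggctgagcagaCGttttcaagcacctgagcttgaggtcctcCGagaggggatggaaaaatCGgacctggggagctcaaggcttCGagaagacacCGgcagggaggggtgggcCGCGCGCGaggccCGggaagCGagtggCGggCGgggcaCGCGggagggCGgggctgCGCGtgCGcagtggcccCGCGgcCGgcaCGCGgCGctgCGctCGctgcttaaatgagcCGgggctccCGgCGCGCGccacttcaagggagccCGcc
Grik2, chr10:49788705-49789004, minus strand: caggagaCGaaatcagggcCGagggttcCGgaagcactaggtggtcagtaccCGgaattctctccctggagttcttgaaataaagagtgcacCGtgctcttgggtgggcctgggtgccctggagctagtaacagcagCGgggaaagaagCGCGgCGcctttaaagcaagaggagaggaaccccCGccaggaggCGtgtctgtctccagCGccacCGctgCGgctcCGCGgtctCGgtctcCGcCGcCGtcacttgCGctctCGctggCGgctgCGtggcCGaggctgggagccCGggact
Grm7, chr6:110645262-110645561, plus strand: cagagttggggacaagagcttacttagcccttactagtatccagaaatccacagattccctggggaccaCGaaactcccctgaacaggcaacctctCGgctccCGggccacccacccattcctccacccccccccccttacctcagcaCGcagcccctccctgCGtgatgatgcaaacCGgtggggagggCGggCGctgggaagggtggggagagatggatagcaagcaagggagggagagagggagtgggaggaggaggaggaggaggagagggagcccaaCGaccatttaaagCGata
The Neto2 window held 36 CG dinucleotides, the Grik2 window 26 and the Grm7 window 10, against a median of 7 over all 32851 windows. A further Neto2 start, at chr8:85690960-85691259, had 0, and a further Grm7 window, at chr6:110645348-110645647, which overlaps the one shown, had 15. None of the windows held the letters ACAAAG or ACAATG on either strand, the core bound by SOX factors, which 28.6% of all windows held. The AP-1 letters TGACTCA (5.20% of all windows) and the CRE letters TGACGTCA (1.79%) were likewise not in these windows.

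Sequencing gave 53496570 to 153044123 UMIs per library. Tumor cells were those with at least 6 of 15 MPNST-like markers, no Xist UMI and no host gate passed. They could hold up to 6 macrophage-like markers. Xist marks female host cells and was found in 90.3% of macrophage-like cells. The gate took 770 to 3140 cells per tumor, with median depths of 14753 to 31803 UMIs. The gate was set on MPNST-like markers, so their presence in gated cells (Prrx1 in 98.8%, Col11a1 in 93.3% and Sox9 in 87.4%) is built in. Of the 15 markers, 11 were found in at least 25% of tumor cells, and Sox11 and Meg3 in under 1%. Prrx1 was also in 94.8% of pericyte-like cells and Sox9 in 86.4% of keratinocyte-like cells. Col11a1 was highest among host classes in fibroblast-like cells, at 32.4%. Of 10 host fibroblast markers, 5 were in over 25% of tumor cells, with Dcn in 90.2% and Pdgfra in 84.6%. Pi16 was in 4.72% and Clec3b in 0.290% of tumor cells. The Schwann lineage factor Sox10 was in 0.0759% of tumor cells. The macrophage marker Lyz2 was in 37.8% of tumor cells. A total of 190 of 39347 distinct barcodes occurred in more than 1 library. Cells that passed no gate or exceeded the limits for markers of conflicting classes (5603, or 16.3%) were left out.

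Gria1, the GluA1 subunit of AMPA receptors, was found in 45.9% of tumor cells pooled over the 7 tumors. The share within a tumor ran from 32.6 to 63.6%. Its level was 111, 78.1 and 71.0 CPM (UMIs of the gene per 1000000 UMIs of the class) in the tumor cells of control tumors 1 to 3 and 98.6, 90.7, 147 and 169 CPM in irradiated tumors 1 to 4. The mean over the 7 tumors was 109 ± 36.3 CPM (SD, n = 7). Irradiated tumors 3 and 4 lay above every control tumor, and irradiated tumors 1 and 2 lay between control tumors.

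Gria3, the GluA3 subunit of AMPA receptors, was low in tumor cells. It had 0.596, 0.976 and 6.42 CPM in control tumors 1 to 3 and 3.01, 0.942, 2.20 and 2.68 CPM in irradiated tumors 1 to 4. Control tumor 3 was the highest and control tumor 1 the lowest, so the spread within the control group covered all irradiated tumors. The level lay within or below the range of macrophage-like cells (0.669 to 2.03 CPM) in 3 tumors and above it in 4. Only 506 of 14498 tumor cells held a Gria3 UMI. In those cells the count was often above 1, with means of 1.86 to 3.00 UMIs per positive cell in the 7 tumors and up to 16 UMIs in a single cell.

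Grik2, the GluK2 subunit of kainate receptors, had 55.0, 61.0 and 113 CPM in control tumors 1 to 3 and 65.3, 44.0, 103 and 151 CPM in irradiated tumors 1 to 4. The highest and the lowest tumor were both irradiated. A Grik2 UMI was found in 38.5% of tumor cells. Neto2, which binds GluK2 channels, had 58.8, 57.9 and 44.6 CPM in control tumors and 61.1, 60.7, 86.3 and 120 CPM in irradiated tumors. All 4 irradiated tumors lay above all 3 controls, although irradiated tumors 1 and 2 exceeded the highest control by little. A Neto2 UMI was found in 39.3% of tumor cells.

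Shisa6, the AMPA receptor auxiliary protein, varied most between tumors among the 5 genes other than Gria3, with 19.5, 8.56 and 3.91 CPM in control tumors and 18.8, 14.6, 23.5 and 42.3 CPM in irradiated tumors. The highest tumor, irradiated 4, had 10.8 times the level of the lowest, control 3. Grm7 had 21.7, 18.9 and 26.2 CPM in control tumors and 51.6, 12.0, 38.7 and 62.1 CPM in irradiated tumors. Irradiated tumors 1, 3 and 4 lay above all controls and irradiated tumor 2 below them. Irradiated tumor 4 was the highest of the 7 tumors for Gria1, Grik2, Grm7, Neto2 and Shisa6.

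**Figure D1:**
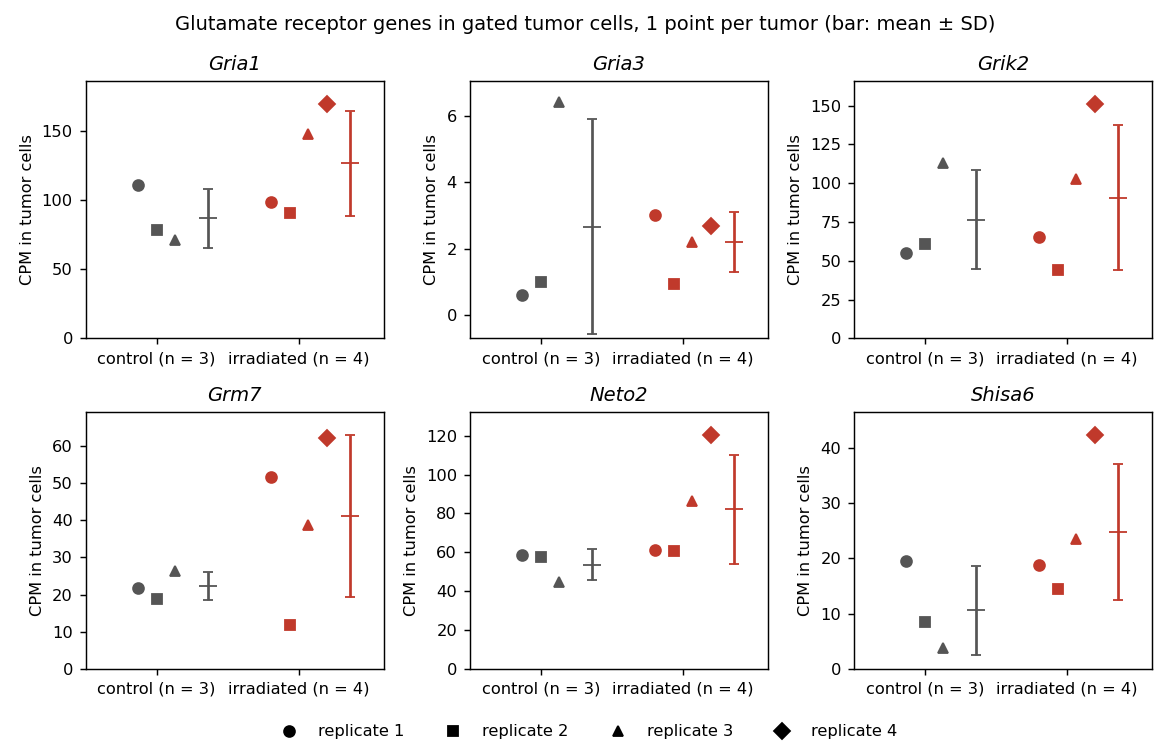
Level of each gene (CPM, linear axis) in the gated tumor cells of each tumor, with the mean and SD of each group beside the points. Neto2 is the 1 gene whose 4 irradiated tumors all lie above the 3 controls, and Gria3 is highest in control tumor 3 at 6.42 CPM.

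The tumor cells held 80.6 to 86.9% of all UMIs of Gria1, Grik2, Grm7, Neto2 and Shisa6 in retained cells. Most of the rest lay in cells that were left out of all classes. Macrophage-like cells, the most numerous host class, served as the reference for low levels in another cell type, where free RNA, mixed droplets and low expression cannot be told apart. Gria1 had 0.559 ± 0.287 CPM there, Grik2 0.535 ± 0.337, Grm7 0.732 ± 0.279, Neto2 1.99 ± 0.750 and Shisa6 0.211 ± 0.135 (SD, n = 7). For each of these genes the lowest tumor-cell level was above the highest macrophage-like level. Taken as a percentage of the tumor-cell level in the same tumor, the medians were between 0.471% for Gria1 and 3.17% for Neto2, with 2.04% for Grm7. The tumor markers gave 0.739% for Prrx1, 0.821% for Col11a1, 1.25% for Tnc and 1.83% for Crabp1, so Neto2 and Grm7 lay above these 4. Runx2 gave 6.88% but was also found in 21.2% of macrophage-like and 56.3% of T/NK-like cells.

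Tumor cells were deeper than macrophage-like cells (pooled median 23488.5 against 6737.5 UMIs), so shares were also compared with each cell thinned to 2500 UMIs. Gria1 was then found in 11.7 to 24.9% of tumor cells and 0.101 to 0.277% of macrophage-like cells. Neto2 was found in 8.13 to 18.2% against 0.236 to 0.771%, and Shisa6, the sparsest of the 5, in 0.813 to 7.23% against 0 to 0.116%. For Gria3 the ranges overlapped, with 0.119 to 1.50% of tumor cells and 0.141 to 0.703% of macrophage-like cells.

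Outside the tumor cells, Gria3 was high in fibroblast-like cells. These cells, gated by Xist and host fibroblast markers such as Pi16 and Clec3b, had 149 ± 72.9 CPM of Gria3 (SD, n = 7), with a UMI in 126 of 222 cells. The level was 47.4, 217 and 115 CPM in control tumors 1 to 3 and 88.1, 180, 143 and 254 CPM in irradiated tumors 1 to 4. The lowest fibroblast-like value was above the highest tumor-cell value of 6.42 CPM, and the 2 groups of tumors overlapped. Dendritic-like cells had 15.9 ± 16.0 CPM of Gria3 (SD, n = 7), a range that reached 0.

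Grik2 was highest in Schwann-like cells, gated by markers of the glia of peripheral nerve. The gate asked for Xist or fewer than 6 MPNST-like markers, and Xist was found in 76% of these cells. Host origin was thus not shown for every Schwann-like cell. Schwann-like cells were rare, 25 cells in all 7 tumors, and 10 of them came from control tumor 1. Together they held 183 Grik2 UMIs among 135604 UMIs, or 1350 CPM, with a UMI in 17 of 25 cells. The same cells had 25 Gria3 UMIs (184 CPM) and 0 UMIs of Grm7 and Shisa6, where 3 UMIs, the limit that a count of 0 allows, would be 22.1 CPM. Every tumor with a Schwann-like cell had at least 2 Grik2 UMIs in it. Their own depth was low, with a median of 3885 UMIs per cell.

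Neto2 was also found at low levels in other host cells. T/NK-like cells had 10.3 ± 4.47 CPM and endothelial-like cells 9.26 ± 3.85 CPM (SD, n = 7), in both cases with UMIs in all 7 tumors. These levels were on average above those of macrophage-like cells, but the lowest T/NK-like value (2.76 CPM) was under the highest macrophage-like value (3.28 CPM). They were below those of tumor cells, where the lowest tumor had 44.6 CPM. Neto2 reached 36.8 CPM in fibroblast-like and 21.6 CPM in dendritic-like cells of the highest tumor, with medians of 2.94 and 0 CPM. Grik2 in T/NK-like cells averaged 8.56 ± 16.7 CPM, but the median tumor had 1.19 CPM and the highest 45.3 CPM. That highest value, in control tumor 3, came from 27 UMIs in 1 cell, out of 37 Grik2 UMIs in all T/NK-like cells.

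**Figure D2:**
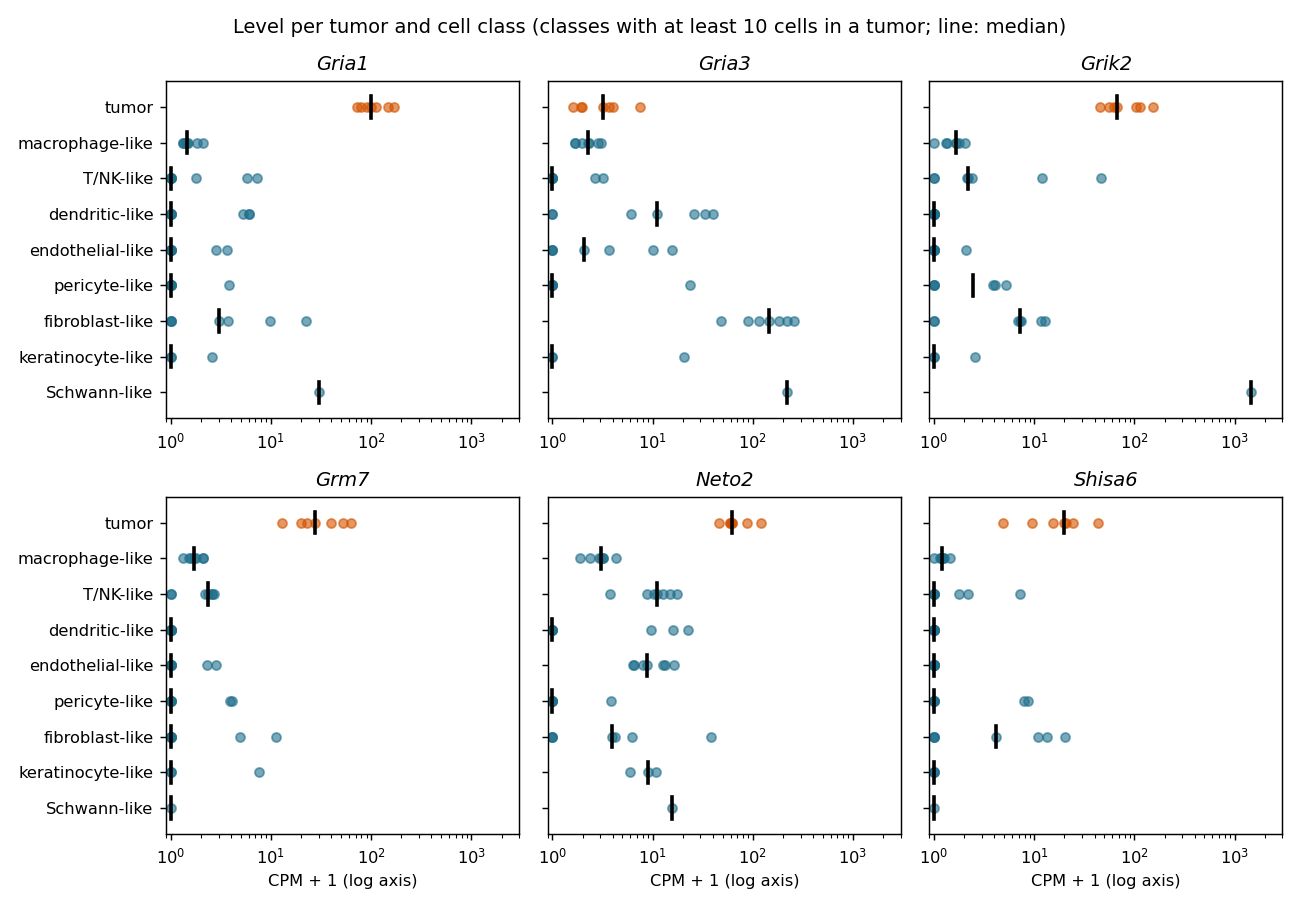
Level of each gene (CPM + 1, log axis) in each cell class, 1 point per tumor for classes with at least 10 cells there and a line at the median. Tumor cells lie above macrophage-like cells in every tumor for the 5 genes other than Gria3. Grik2 is highest in Schwann-like cells, Gria3 is high in fibroblast-like (149 CPM on average) and Schwann-like cells, and Shisa6 reaches 19.3 CPM in fibroblast-like cells of 1 tumor.

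Within the tumor cells the transcripts were concentrated in some cells. Gria1 was found in 32.6 to 63.6% of tumor cells, where an even spread by depth would have given 66.7 to 96.3%. Grik2 was found in 25.8 to 60.4% against 59.2 to 95.3%, and Grm7 in 10.6 to 30.3% against 27.4 to 79.1%. The 10% of cells richest in a gene held 51.3 to 69.7% of its UMIs for Gria1, 57.7 to 71.0% for Neto2 and 80.7 to 98.6% for Grm7. These shares depend on how many cells held the gene and were not matched for depth. The 98.6% was in irradiated tumor 2, where only 10.6% of cells held a Grm7 UMI. The richest single cells held 101 UMIs of Gria1, 140 of Grik2 and 185 of Neto2. At least 1 of the 5 genes other than Gria3 was found in 59.7 to 89.9% of the cells of a tumor and all 5 in 0.408 to 3.12%.

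Some pairs of the 6 genes were found in the same tumor cells more often than others. Co-detection was read as the number of cells with both genes divided by the number expected from the separate shares among cells of like depth in the same tumor. Neto2 and Shisa6 shared 1245 cells where 875 were expected, with ratios of 1.27 to 1.54 in the 7 tumors. The ratio was 1.10 to 1.54 for Gria1 with Shisa6 and 1.11 to 1.35 for Gria1 with Neto2. Of the cells with Shisa6, 62.7 to 82.3% also held Gria1. Gria1 also met Grik2 in 3407 cells where 2919 were expected, with ratios of 1.05 to 1.28. Its median ratio with Grik2 was above that with Neto2 (1.17), but this order did not hold on thinning. With each cell thinned to 5000 UMIs, the median was 1.31 for Gria1 with Grik2 and 1.59 for Gria1 with Neto2. Pearson's r across cells was likewise lower with Grik2 (median 0.15) than with Neto2 (0.29). Without thinning, Gria1 with Grm7 gave ratios of 1.07 to 1.44. Grik2 with Shisa6 gave 0.875 to 1.32, with a median of 1.16.

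Grik2 and Grm7 shared 1742 cells where 1222 were expected, with ratios of 1.18 to 1.74. Gria3 was found with Grm7 in 232 cells where 112 were expected, with a ratio above 1 in 6 of 7 tumors and a median of 2.31. Of the cells with Gria3, 17.6% (3 cells, control tumor 1) to 76.6% (98 cells, irradiated tumor 1) also held Grm7, with 27.8% in control tumor 3. Gria3 with Grik2 had a median ratio of 1.40, with a ratio above 1 in 6 of 7 tumors. Gria3 and Shisa6 seldom met, with 15 cells where 53.9 were expected and a ratio under 1 in every tumor. Of the auxiliary subunits, Neto2 with the kainate subunit Grik2 had a median ratio of 1.08, the lowest being 0.969 in control tumor 3, and Shisa6 with the AMPA subunit Gria1 had 1.38.

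Correlations across cells were weak. Pearson's r of log-scaled values, taken within each tumor over 770 to 3140 cells, had a median of 0.29 for Gria1 with Neto2, 0.28 for Neto2 with Shisa6 and 0.27 for Gria1 with Shisa6. It was 0.29 for Grik2 with Grm7 and 0.18 for Grm7 with Gria3. Gria1 with Grik2 had 0.15, above the 0.12 of Gria3 with Grik2. It was 0.06 for Neto2 with Grik2 and -0.04 for Neto2 with Grm7. Cells of a tumor share 1 library and differ in depth, so these values describe the cells and were not tested.

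**Figure D3:**
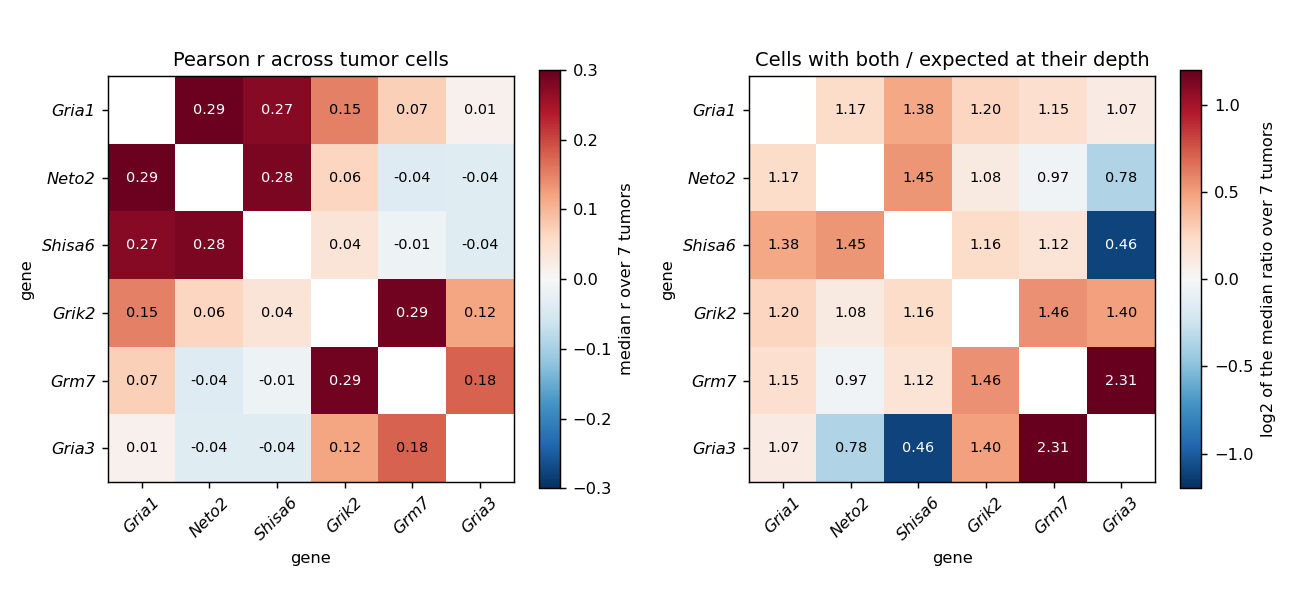
Left, the median over 7 tumors of Pearson's r across tumor cells for each pair. Right, the median ratio of cells with both genes to the number expected at their depth (numbers are ratios, colors their log2). All pairs have median ratios above 1 except Gria3 with Neto2 (0.78), Grm7 with Neto2 (0.97) and Gria3 with Shisa6, which lies lowest at 0.46. Gria3 with Grm7 is highest at 2.31.

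The genes most like each member overlapped in part, with Tafa1 nearest to both Gria1 and Grik2. Among 11124 genes found in at least 5% of tumor cells of every tumor, Gria1 correlated most with Tafa1 (median r 0.45), Hmga2 (0.37), Kcnip1 (0.34), Il1rl1 (0.33) and Rbpj (0.32). Neto2 followed Hmga2 (0.37), Ccnd1 (0.33), Entrep2 (0.33), Rbpj (0.32) and Adcy8 (0.31). Shisa6 followed Adcy8 (0.33), Tafa1, Kcnip1, Entrep2 and Hmga2 (0.27). Kcnip1 binds potassium channels, Rbpj is the transcription factor of the Notch pathway, Ccnd1 encodes cyclin D1 and Adcy8 a calcium-stimulated adenylyl cyclase. Hmga2, a chromatin protein of embryonic and tumor cells, was thus among the 5 genes nearest to Gria1, Neto2 and Shisa6 alike.

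Grik2 correlated most with Tafa1 (0.30), B3galt1 (0.29), Zfpm2, Ank3 and Magi1 (0.23). Grm7 correlated most with Unc13c (0.25), B3galt1 (0.25), Septin9 (0.22), Slc8a1 and Acpp (0.20), and Gria3 with B3galt1 (0.22), Unc13c (0.19), Slc8a1, Kirrel3 and Acta2 (0.15). Unc13c primes synaptic vesicles, Ank3 encodes ankyrin-G, a membrane scaffold, and Slc8a1 is a sodium-calcium exchanger. B3galt1, a galactosyltransferase, stood among the nearest genes of Grik2, Grm7 and Gria3. The members span long genes in RefSeq (GRCm38.p6), from 64.2 kb for Neto2 to 922 kb for Grm7, and the 17 of these 18 nearest genes that had a span gave a median of 364 kb against 26.3 kb for all genes at 5 CPM or more. The part of gene length in these correlations was not tested.

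Gria1, Neto2 and Shisa6 were higher in cycling tumor cells, whereas Grik2 and Grm7 were higher there in few tumors. In cells with at least 3 cell cycle markers, which made up 18.0 to 29.8% of tumor cells, Neto2 was higher than in the other tumor cells of the same tumor in 7 of 7 tumors, by a median of 2.43-fold. Its level was 106 against 37.8 CPM in control tumor 1, 101 against 36.7 in control tumor 2, 55.3 against 36.4 in control tumor 3, and 93.2 against 43.3, 112 against 35.4, 129 against 53.8 and 186 against 76.5 CPM in irradiated tumors 1 to 4. Gria1 was higher by a median of 2.16-fold and Shisa6 by 2.49-fold, each in 7 of 7 tumors. Grik2 (median ratio 0.897) and Grm7 (0.849) were higher in only 2 of 7, and Gria3 (1.31) in 4 of 7. Cycling cells were deeper, with medians of 29015 to 53420 against 13253 to 28852.5 UMIs. Among cells above the median depth of their tumor the ratios were 2.50 for Neto2, 2.13 for Gria1, 2.48 for Shisa6, 0.918 for Grik2 and 0.903 for Grm7.

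Cells with at least 2 neuron-like markers (8.57 to 20.1% of tumor cells) had more Gria1, Grm7, Neto2 and Shisa6 in 7 of 7 tumors, with median ratios of 2.03, 1.56, 1.71 and 1.89, and more Grik2 in 6 of 7. Cells with at least 2 cartilage markers had less of all 6 genes in every tumor, with median ratios from 0.111 for Gria3 to 0.556 for Neto2. Irradiated tumor 4 had only 20 such cells. Among cells above the median depth of their tumor, Gria1 and Neto2 were each higher in 1 of 7 tumors and Gria3 in 2 of 7. In cells with at least 5 dissociation stress genes Gria1, Gria3, Grik2 and Grm7 were lower in all 7 tumors (median ratios 0.765, 0.826, 0.754 and 0.625), but among cells above the median depth Grik2 and Grm7 were higher in 2 of 7 and Gria3 in 1 of 7. Cells with at least 2 neural crest and Schwann markers were 9 to 134 per tumor. They had 0 Gria3 UMIs in every tumor, but in tumors with few such cells a count of 0 need not mean absence. Their median ratio for Grik2 was 0.437, so the high Grik2 of Schwann-like cells was not seen in them.

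**Figure D4:**
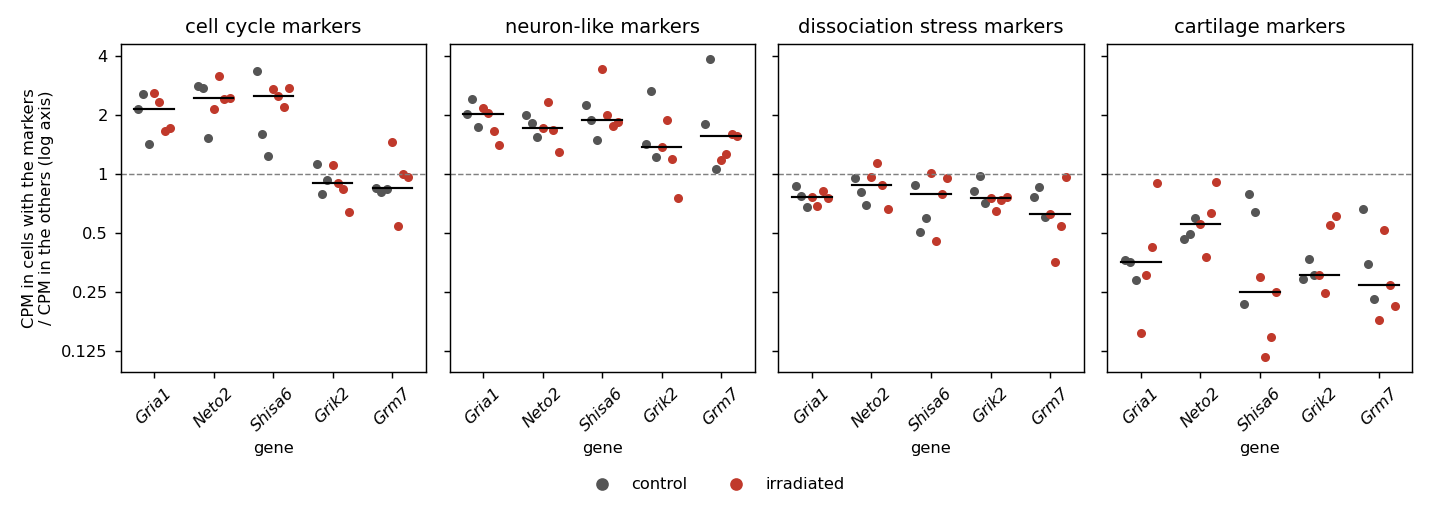
Ratio of the level in tumor cells with the markers of a state to that in the other tumor cells (log axis), 1 point per tumor, with a line at the median over 7 tumors and a dashed line at 1. Gria1, Neto2 and Shisa6 lie above 1 in cycling cells of every tumor, whereas Grik2 and Grm7 have medians of 0.897 and 0.849, and all 5 lie below 1 in cells with cartilage markers.

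Whether irradiation changed these genes in the surviving tumor cells was asked of the UMI counts summed over the tumor cells of each tumor, with edgeR's quasi-likelihood test across 17415 genes. None of the 6 genes passed, and no gene of the whole table did (0 of 17415, 0%; 209 genes, or 1.2%, had an unadjusted p under 0.05). DESeq2 also called 0 genes (241 unadjusted). The log2 fold change of irradiated over control tumors was 0.55 ± 0.21 (SE) for Neto2, with a 95% interval of 0.06 to 1.03, and 0.49 ± 0.21 for Gria1 (0.01 to 0.97). It was 1.19 ± 0.50 for Shisa6, with the widest interval of the 3 at 0.02 to 2.36. These 3 had an unadjusted p under 0.05 and an adjusted p of 1.00. Grm7 had 0.81 ± 0.46 (-0.26 to 1.88), Grik2 0.14 ± 0.43 (-0.86 to 1.13) and Gria3 -0.40 ± 0.82 (-2.28 to 1.48), all with an adjusted p of 1.00.

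Neto2 was the 1 member whose irradiated tumors all lay above the controls, which was the case for 1.37% of the genes tested, and no member lay wholly below, against 0.907%. Irradiated tumor 4 weighed on these differences. Without it the log2 fold changes were lower, at 0.34 for Neto2, 0.35 for Gria1, 0.81 for Shisa6, 0.58 for Grm7 and -0.18 for Grik2. Without control tumor 3 that of Gria3 was 1.50, of Grik2 0.61 and of Shisa6 0.81, and without control tumor 1 that of Shisa6 was 1.86. Irradiated tumor 4 had the lowest share of cells with cartilage markers (2.60%, against 7.03 to 23.6% in the other tumors) and with dissociation stress genes (33.9%, against 48.3 to 82.6%), and the highest share with neuron-like markers (20.1%, against 8.57 to 18.2%). Its share of cycling cells was 29.7%, and the share was 29.8% in control tumor 3 and 29.5% in irradiated tumor 3. The part of these states in the differences was not tested.

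The share of tumor cells with a UMI, each cell thinned to 5000 UMIs, gave no difference past the test. Gria1 was found in 29.7 ± 7.60% of cells in irradiated tumors (SD, n = 4) and 22.4 ± 3.82% in control tumors (SD, n = 3), a difference of 7.31 percentage points (two-sided exact permutation test over 35 splits, p = 0.229). Neto2 was found in 21.2 ± 5.54% against 15.5 ± 1.47%, with 3 of 4 irradiated tumors above all controls (exact permutation p = 0.171). Shisa6 was found in 7.34 ± 3.22% against 3.51 ± 2.19% (exact permutation p = 0.171). The differences were 3.35 points for Grik2 (exact permutation p = 0.6), 2.55 for Grm7 (p = 0.343) and -0.10 for Gria3 (p = 0.943). The smallest p that this design allows is 0.0286, and the 6 values were not adjusted.

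Depth differed between the libraries, so the differences were also taken within the 3 tumors with the shallowest tumor cells (control 2, control 3 and irradiated 1) and within the 4 deeper ones. Each set held 1 tumor of one of the groups, so these differences are descriptions that cannot show the part of depth. The share of Gria1 was higher in irradiated tumors by 2.88 points in the shallower and 5.36 in the deeper tumors. The values were 2.33 and 5.89 points for Neto2, 2.86 and 2.23 for Shisa6, 4.94 and 1.86 for Grm7, -3.21 and 9.28 for Grik2, and -0.15 and 0.70 for Gria3, so Grik2 and Gria3 changed sign.

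The rest of the glutamate pathway was read from a list of 67 receptor, auxiliary, scaffold and transport genes, all of which were in the matrices. Of these, 22 reached 5 CPM on average in tumor cells, 5 of them members. Over the whole matrices, 10602 of 33696 genes reached it, a like share. The cut does not rank genes by level, which a 3′ assay does not allow. Among AMPA subunits Gria4 reached 9.37 ± 3.04 CPM (SD, n = 7) and Gria2, the subunit that limits calcium entry, 0.799 ± 1.43, with 3.95 CPM in irradiated tumor 1 and under 1 CPM in the others. No NMDA subunit (0 of 7) and no delta subunit (0 of 2) reached 5 CPM. Of the 8 metabotropic receptors Grm7 alone did, and Grm6 had 0 UMIs in 405506949. Of the other auxiliary proteins, Cacng7 (13.2 ± 3.83 CPM) and Cnih2 (7.06 ± 2.82 CPM) reached it, and Neto1, the close relative of Neto2, had 2 UMIs in all.

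Scaffolds and glutamate handling genes were read at the same cut, which 5 of the 13 handling genes reached. Of 13 scaffolds, 9 reached 5 CPM, with Dlg1 at 178 ± 22.6, Dlg4, the postsynaptic scaffold PSD-95, at 54.1 ± 7.26 and Homer1 at 37.5 ± 9.20 CPM. The glutamate uptake carrier Slc1a3 had 186 ± 63.8 CPM and the cystine-glutamate exchanger Slc7a11 35.5 ± 13.8 CPM. The vesicular glutamate transporters Slc17a6, Slc17a7 and Slc17a8 were below 1 CPM in every tumor.

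Of the 61 listed genes other than the members, 38 could be tested between irradiated and control tumors, and 0 passed in either direction with edgeR. Gria4 had the lowest unadjusted p, with a log2 fold change of -0.60 ± 0.25 (SE), opposite in sign to Gria1. The median log2 fold change was -0.06 over these 38 genes, 0.52 over the 6 members and 0.01 over all genes tested. Slc1a3 had -0.51 ± 0.31 and Slc7a11 0.13 ± 0.31, both with an adjusted p of 1.00.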

How the data were processed

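For each tumor the authors deposited 1 matrix of raw UMI counts, genes by called cells, whose header names Cell Ranger 8.0.0. The labels name mm10 and Seurat 4.4, and 5.15% of the feature identifiers were not in GENCODE M21, so the annotation release is unsure and no coordinates were taken from the files. Whether intronic reads were counted is not given in the sources used here, and a 3′ assay does not allow levels to be compared between genes.

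The members, gene lists and gates were chosen with earlier results of these data known. Cells beyond 3 median absolute deviations in UMIs, genes, mitochondrial or ribosomal share were removed (34296 of 39537 kept). Classes were gated by numbers of listed markers found in a cell, with thresholds set after seeing the data: macrophage-like cells needed 9 of 15, T/NK-like 4 of 15 and fibroblast-like cells Xist with 3 host markers. Cells that passed the gates of 2 host classes were left out, except that those passing the macrophage-like and dendritic-like gates were called dendritic-like. Pericyte-like, fibroblast-like and Schwann-like cells could hold up to 9 MPNST-like markers and other host classes up to 5. No doublet caller was run. CPM was taken over the summed UMIs of a class in 1 tumor. Thinning was computed from the hypergeometric distribution. Expected co-detection used 10 depth classes per tumor.

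Sums over tumor cells were tested with edgeR 4.0.16 (filterByExpr, TMM, robust quasi-likelihood test, Benjamini-Hochberg adjustment over all genes, threshold 0.05) in R 4.3.3, with DESeq2 1.42.0 as an alternative. The script was tested on simulated counts. Counts of 0 carry a limit of 3 UMIs, which reflects counting error alone. The named genes were the members, the listed glutamate genes at 5 CPM or more, and the 5 genes best correlated with each member. Genes under 5 CPM that are named (Gria2, Neto1, Grm6, Slc17a6, Slc17a7 and Slc17a8) were chosen after their values were seen. The tumors are labelled as biological replicates, and numbers 1 to 3 occur in both groups. Alternatives were other size factors, filters, gates and thinning depths, leaving out each tumor, a replicate block and depth as a covariate. Some items of the genotype and gene lists are not reported here.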

Additional observations from a re-analysis of the deposited data

How the results depend on the processing

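The count of genes past the threshold was 0 under all 15 alternatives of the edgeR fit (range without each tumor 0 to 0), with 100 to 874 genes at an unadjusted p under 0.05. The adjusted p of each member stayed between 0.790 and 1. Leaving out each tumor gave -0.90 to 1.50 for Gria3 and -0.18 to 0.61 for Grik2 on the log2 scale. Of 90 alternative log2 fold changes of the members, 84 kept their sign. Those that did not were Gria3 without control 3 (1.50) and with the replicate block (0.16), and Grik2 without irradiated 4 (-0.18), without control 1 (-0.10), without control 2 (-0.05) and with the replicate block (-0.15). Deviations of the same-numbered tumors correlated at -0.43, -0.07 and 0.12, and those of unlike-numbered tumors at -0.22 to 0.45. So few values cannot show whether the numbers pair the tumors. The fit with the block, on tumors 1 to 3 of each group, called 0 genes.

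For the thinned shares, leaving out each tumor gave differences of 4.76 to 9.50 points for Gria1, -0.56 to 0.74 for Gria3, -0.39 to 7.90 for Grik2, 1.16 to 4.59 for Grm7, 3.44 to 7.38 for Neto2 and 2.28 to 4.97 for Shisa6. The sign turned for Grik2 without irradiated 4 (-0.39 points), with the replicate block (-0.39) and within the shallower tumors (-3.21). It turned for Gria3 without control 3 (0.742), without irradiated 2 (0.0909), within the deeper tumors (0.696) and with a tumor gate without the Xist condition (0.164), an alternative added after seeing the data. The exact permutation p ranged from 0.0857 to 1 over all alternatives.

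Median shares of tumor cells with a UMI were lower at 2500 UMIs: 14.8% for Gria1, 12.0% for Grik2, 5.43% for Grm7, 10.0% for Neto2 and 3.08% for Shisa6. Stricter gates raised Shisa6 in fibroblast-like cells to 15.6 CPM. Thinning to 5000 UMIs moved some median co-detection ratios further from 1. They became 1.31 for Gria1 with Grik2, 1.59 for Gria1 with Neto2, 2.04 for Gria1 with Shisa6 and 2.10 for Neto2 with Shisa6. They were 1.94 for Grik2 with Grm7, 0.852 for Grm7 with Neto2 and 0.450 for Gria3 with Neto2. The stricter tumor gate moved this last pair to 1.04. The ratio of Grm7 with Shisa6 crossed 1 on thinning, from 1.12 to 0.930. The causes were not tested. Depth limits what can be said of Gria3, with 29 to 474 UMIs per tumor in tumor cells, and of Schwann-like cells.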

Other observations

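Cells that were left out of all classes held 12.5% of the UMIs of Grm7, 13.8% of Grik2 and 16.3% of Gria1 in retained cells. They held 17.5% of the UMIs of Neto2, 18.8% of Shisa6 and 24.0% of Gria3. Of 24 retained cells with at least 5 neuron-like markers, 22 were in the tumor gate.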
